A study of Mus musculus with 6 samples.

Results

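The leukemia inhibitory factor (LIF) receptor and gp130 signaling genes were read in the testes of mice that had received fecal microbiota, as 10 genes chosen by symbol out of the 54532 genes of the expression table. They comprise the receptor genes Lifr, Il6st, Il6ra, Osmr and Cntfr, the ligand gene Lif, the kinase genes Jak1 and Jak2, the transcription factor gene Stat3 and the inhibitor gene Socs3. All 10 were in the table with 1 row each. Lifr had already been seen among the lower genes of this comparison when the set was drawn up, so the difference of each of the 10 genes is given as a description with a standard error (SE) and no test. The alcohol-FMT group (FMT, fecal microbiota transplantation) consisted of normal male C57 mice (strain C57BL/6 on the labels) that were given microbiota from donors drinking 10% ethanol, and the control-FMT group of normal male C57 mice given microbiota from donors drinking distilled water. No recipient drank ethanol. The recipients were 3 weeks old at the start, shared cages for 2 weeks, and were then gavaged 3 times a week for 10 weeks with the supernatant of stool collected from 5 donors per group. The donors had drunk ethanol for 10 weeks in the study's methods and for 8 weeks in its design text. Testis RNA of 3 mice per group, out of 5 recipients per group, was sequenced (alcohol-FMT mice 18, 24 and 31, and control-FMT mice 16, 19 and 21), to ask which testis genes differ between recipients of the 2 kinds of microbiota.

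The cytokines of this family all signal through gp130, the product of Il6st, which is shared by receptors that differ in their other chains. LIF binds the LIF receptor and joins it to gp130, and the kinases JAK1 and JAK2 held by the receptor tails then phosphorylate STAT3, which moves to the nucleus and turns on target genes. Among these targets is Socs3, whose product binds gp130 and its kinases and shuts the signal off. LIF supports gonocytes and Sertoli cells in culture, and in the Drosophila testis the related JAK-STAT pathway maintains germline stem cells. Abundance of RNA was measured here, and neither receptor protein nor phosphorylated STAT3.

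The libraries held 16504096 to 18633124 fragments in genes, 0.591 to 1.05% of them from the mitochondrial genome. Levels are in FPKM (fragments per kilobase of gene length and per library, scaled by the authors). Fold changes are differences of log2(FPKM + 1), so they come out smaller than the true ratio, most of all for genes near or below 1 FPKM but also for Lifr. The 15206 genes with a mean of at least 1 FPKM were tested with limma, and their median log2 fold change was 0.008. No gene passed an adjusted p of 0.05 (0%), while at an unadjusted p of up to 0.05 there were 750 higher genes (4.93%) and 356 lower genes (2.34%). The groups did not overlap in 1180 genes with the alcohol-FMT group above (7.76%) and in 810 with it below (5.33%). All 7 spermatid markers of a marker list were measured in every library, with a summed level of 14544 to 21733 FPKM in the alcohol-FMT testes and 14084 to 16731 FPKM in the control-FMT testes. The p-values measure the spread between these mice only.

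Promoter sequence is shown for the 2 genes the results turn on, Lifr and Socs3, as the 250 bases before a RefSeq transcript start on mouse GRCm38.p6, from 5′ to 3′ on the strand of the gene. Lifr has 2 such starts in RefSeq. The first window lies at chr15:7129322-7129571 on the plus strand and has 82.4% G and C and 43 CpG dinucleotides. The second lies at chr15:7140292-7140541 and has 50.8% G and C and 3 CpG dinucleotides. Over all 32851 promoter windows of this length, the medians are 52.4% and 6 CpG. The Socs3 window lies at chr11:117969367-117969616 on the minus strand, with 71.6% G and C and 26 CpG. Capitals mark a match to the STAT motif TTCNNNGAA, which is its own reverse complement and so was searched on both strands at once.
Lifr, first start: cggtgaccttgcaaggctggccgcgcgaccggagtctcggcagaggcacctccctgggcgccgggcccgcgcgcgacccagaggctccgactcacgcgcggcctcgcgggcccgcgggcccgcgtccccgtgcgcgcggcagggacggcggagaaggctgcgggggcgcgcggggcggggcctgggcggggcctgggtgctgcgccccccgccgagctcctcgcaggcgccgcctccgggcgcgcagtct
Lifr, second start: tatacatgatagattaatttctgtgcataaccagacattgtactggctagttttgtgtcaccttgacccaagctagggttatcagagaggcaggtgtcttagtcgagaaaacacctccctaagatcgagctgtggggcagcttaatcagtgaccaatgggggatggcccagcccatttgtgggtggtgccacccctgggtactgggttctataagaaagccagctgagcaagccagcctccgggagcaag
Socs3: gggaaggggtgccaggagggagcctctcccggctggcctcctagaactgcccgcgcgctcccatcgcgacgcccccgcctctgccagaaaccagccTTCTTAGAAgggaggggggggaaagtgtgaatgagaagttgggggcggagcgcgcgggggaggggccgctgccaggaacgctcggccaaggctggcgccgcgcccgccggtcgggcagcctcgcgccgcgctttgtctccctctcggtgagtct
All 10 genes had a RefSeq promoter, and Socs3 was the 1 gene of the 10 with the motif, in the form TTCTTAGAA 154 bases before the start. The motif occurs in 7.02% of all windows, and its narrower form TTCCNGGAA, a subset of the first, in 0.913%. Neither Lifr window holds these letters. A match is a description of the letters and not of a bound site.

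Lifr, which encodes the LIF-binding chain, was lower in every alcohol-FMT testis than in any control-FMT testis. The gene lies at chr15:7090614-7197489 on the plus strand of mm10, and no other annotated gene overlaps it. Its level was 2.33, 2.04 and 2.55 FPKM in alcohol-FMT mice 18, 24 and 31, against 3.35, 3.75 and 3.15 FPKM in control-FMT mice 16, 19 and 21. These values rest on 423, 410 and 505 fragments in the alcohol-FMT libraries and on 653, 723 and 576 fragments in the control-FMT libraries. The groups were separated by the gap between alcohol-FMT mouse 31 and control-FMT mouse 21. The means were 2.31 ± 0.255 FPKM in the alcohol-FMT group and 3.42 ± 0.302 FPKM in the control-FMT group (SD, n = 3 each), which is 32.4% lower in the alcohol-FMT group, with a log2 fold change of −0.42 (SE 0.096). Summed over mice, 1338 fragments in the alcohol-FMT group (95% exact Poisson interval 1267 to 1412) stood against 1952 in the control-FMT group (1866 to 2041), and these intervals cover counting error only. The log2 fold change was −0.57 with limma-voom on the fragments, a fit that adds no 1 FPKM to the level. It ranged over −0.47 to −0.36 when 1 library at a time was left out. Lifr was the 1 gene of the 10 whose groups did not overlap, a pattern found in this direction in 5.33% of all genes tested. In bulk tissue, fewer cells that express a gene and less of its RNA per cell cannot be told apart.

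**Figure D1:**
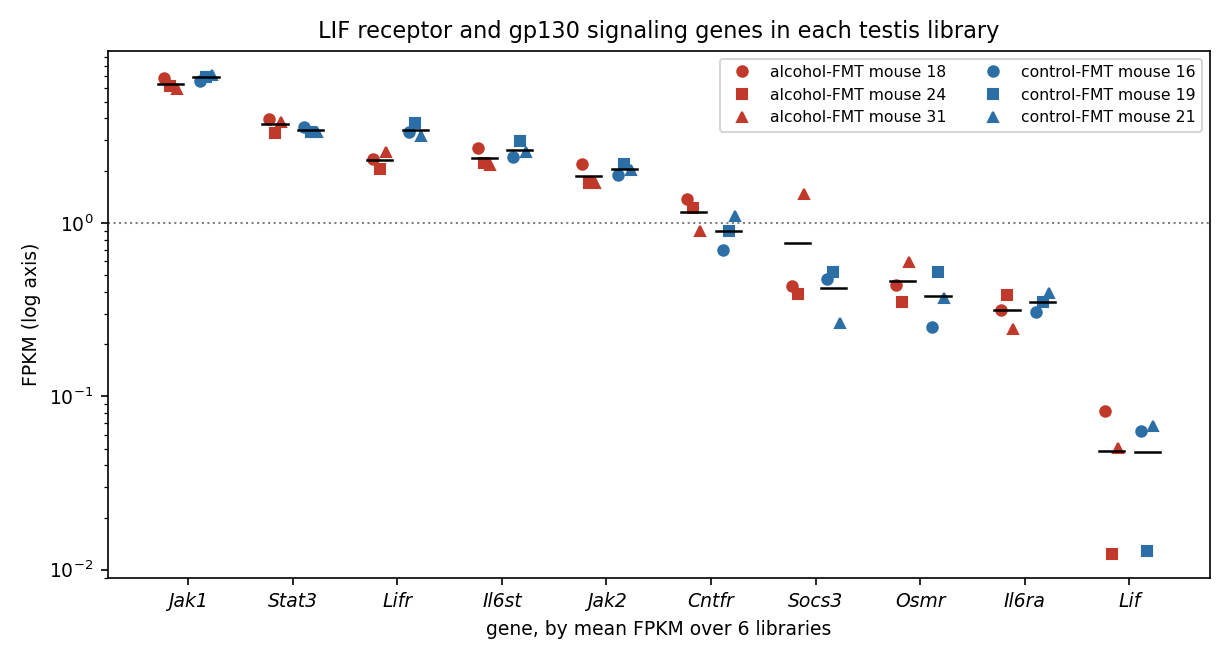
FPKM (log axis) of the 10 genes in each testis library, ordered by mean level, with alcohol-FMT mice in red left of control-FMT mice in blue, black bars for the group means and a dotted line at 1 FPKM. The Lifr points of the alcohol-FMT group (2.04 to 2.55 FPKM) lie below those of the control-FMT group (3.15 to 3.75 FPKM), and Socs3 is high in alcohol-FMT mouse 31 alone (1.47 FPKM).

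Il6st, which encodes the shared chain gp130 and lies at chr13:112464070-112510086 on the plus strand, differed less in its point estimate. It was at 2.69, 2.20 and 2.16 FPKM in alcohol-FMT mice 18, 24 and 31, against 2.40, 2.96 and 2.56 FPKM in control-FMT mice 16, 19 and 21. Alcohol-FMT mouse 18 lay above control-FMT mice 16 and 21, so the groups overlapped. The mean was 2.35 ± 0.296 FPKM in the alcohol-FMT group and 2.64 ± 0.290 FPKM in the control-FMT group (SD, n = 3 each), and the log2 fold change was −0.12 (SE 0.103). The ratio of the 2 chains, Lifr over Il6st, was 0.864, 0.928 and 1.18 in the alcohol-FMT mice, against 1.40, 1.26 and 1.23 in the control-FMT mice. The ratio was thus lower in each alcohol-FMT mouse than in any control-FMT mouse, with a mean of 0.991 ± 0.167 in the alcohol-FMT group and 1.30 ± 0.087 in the control-FMT group. Lifr RNA exceeded Il6st RNA per length in alcohol-FMT mouse 31 and in the 3 control-FMT mice, and fell short of it in alcohol-FMT mice 18 and 24. The ratio uses the same Lifr values as the choice of the genes and is no further evidence of a difference.

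The genes of the other chains of gp130 receptors were at lower levels and did not separate the groups. Cntfr, the membrane-anchored receptor of ciliary neurotrophic factor, which also signals through the LIF receptor and gp130, was at 1.36, 1.22 and 0.90 FPKM in the alcohol-FMT mice, against 0.695, 0.903 and 1.10 FPKM in the control-FMT mice. Its point estimate ran opposite to that of Lifr, at 0.18 (SE 0.126) on the log2 scale, with alcohol-FMT mouse 31 inside the control-FMT range. Osmr, the oncostatin M chain, was at 0.436, 0.350 and 0.593 FPKM in the alcohol-FMT mice, against 0.251, 0.521 and 0.370 FPKM in the control-FMT mice. Il6ra, the interleukin 6 chain, was at 0.316, 0.385 and 0.246 FPKM in the alcohol-FMT mice, against 0.307, 0.349 and 0.396 FPKM in the control-FMT mice. Both lay below the 1 FPKM filter and their groups overlapped, with log2 fold changes of 0.08 (SE 0.103) for Osmr and −0.04 (SE 0.065) for Il6ra. An annotated antisense gene, Gm42809, overlaps Il6ra, and reads of the pair cannot be told apart where strand was not used. The ratios of Cntfr, Osmr and Il6ra to Il6st overlapped between the groups.

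The ligand gene Lif was near the limit of detection. It had 6, 1 and 4 fragments in the alcohol-FMT libraries and 5, 1 and 5 in the control-FMT libraries, or 0.0123 to 0.0818 FPKM over all 6. The sums were 11 fragments in the alcohol-FMT group and 11 in the control-FMT group (95% exact Poisson interval 5.49 to 19.7 each), so a difference in Lif RNA was not detectable at this depth. Of the other ligands of gp130 receptors on a list of 47 further pathway genes, Il6 had 0 fragments in every library, which allows up to 0.0733 FPKM. Il11, the ligand of the interleukin 11 receptor, averaged 2.83 ± 0.526 FPKM in the alcohol-FMT group and 2.78 ± 0.276 FPKM in the control-FMT group (SD, n = 3 each).

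Jak1, at chr4:101152367-101265282 on the minus strand, was the most abundant of the 10 genes, at 6.87, 6.20 and 5.90 FPKM in the alcohol-FMT mice, against 6.56, 6.98 and 7.15 FPKM in the control-FMT mice. Jak2 was at 2.18, 1.71 and 1.70 FPKM in the alcohol-FMT mice, against 1.89, 2.19 and 2.03 FPKM in the control-FMT mice. In both genes alcohol-FMT mice 24 and 31 lay below every control-FMT mouse and mouse 18 did not, as in Il6st. The log2 fold changes were −0.11 (SE 0.080) for Jak1 and −0.09 (SE 0.10) for Jak2. Stat3, which encodes the transcription factor and lies at chr11:100885098-100939540 on the minus strand, was at 3.96, 3.30 and 3.82 FPKM in the alcohol-FMT mice, against 3.59, 3.35 and 3.34 FPKM in the control-FMT mice. Here mice 18 and 31 were highest and mouse 24 lowest of the 6, with a log2 fold change of 0.08 (SE 0.086). Stat5a overlaps Stat3 and Raver2 overlaps Jak1 on the opposite strand, so some reads of these genes could belong to the neighbor.

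Over the 6 libraries, the order of mean levels was Jak1 (6.61 FPKM), Stat3 (3.56), Lifr (2.86), Il6st (2.5), Jak2 (1.95), Cntfr (1.03), Socs3 (0.592), Osmr (0.420), Il6ra (0.333) and Lif (0.0481). The ranges of neighbors in this order overlapped except between Jak1 and Stat3, between Jak2 and Cntfr, and between Il6ra and Lif. The members that passed the filter were Lifr, Il6st, Cntfr, Jak1, Jak2 and Stat3. Of these, 2 had a log2 fold change above 0 and 4 below 0. Il6ra, Osmr, Lif and Socs3 lay below the filter.

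**Figure D2:**
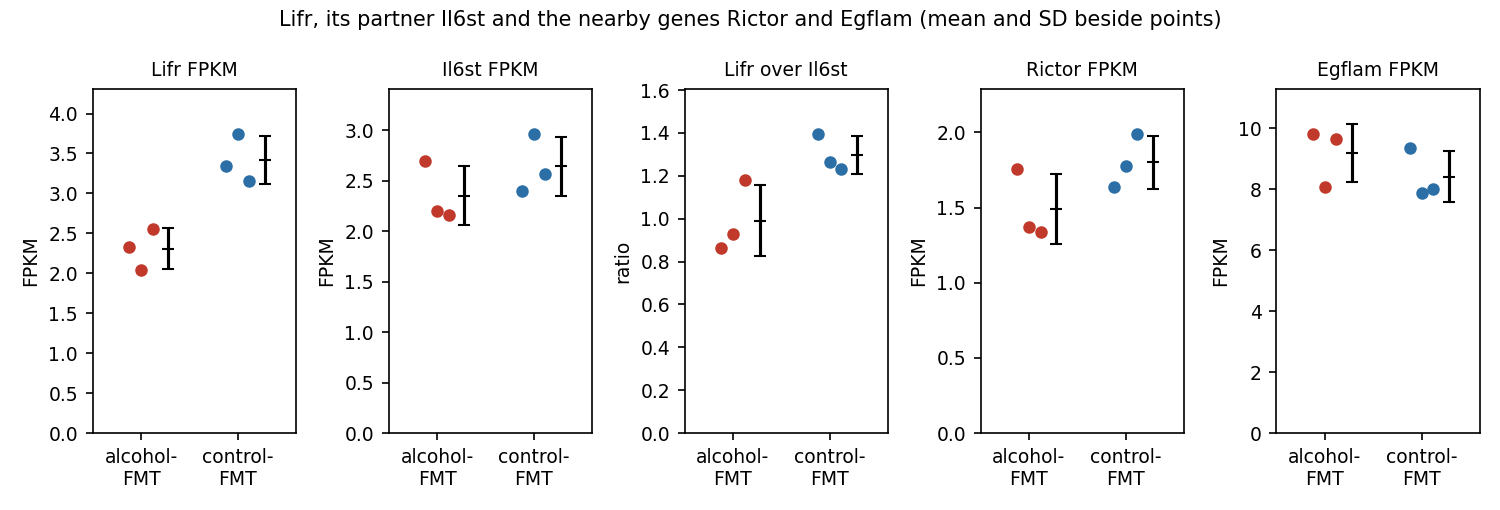
Levels of Lifr, its partner Il6st and the nearby genes Rictor and Egflam (FPKM), and the ratio of Lifr to Il6st, in alcohol-FMT mice (red) and control-FMT mice (blue), with the mean and SD beside the points. Only the panels of Lifr and of the ratio show groups that do not overlap, with ratios of 0.864 to 1.18 in the alcohol-FMT mice and 1.23 to 1.40 in the control-FMT mice.

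Nearby genes on chromosome 15 overlapped between the groups. Rictor, which encodes a subunit of the mTOR complex mTORC2 and lies 290.2 kb before Lifr with Osmr and Gm38282 between them, averaged 1.49 ± 0.234 FPKM in the alcohol-FMT group and 1.80 ± 0.177 FPKM in the control-FMT group (SD, n = 3 each). Its log2 fold change of −0.17 (SE 0.103) had the sign of that of Lifr, with alcohol-FMT mice 24 and 31 below every control-FMT mouse and mouse 18 inside their range, and an adjusted p of 0.774 (limma). Egflam, which encodes the matrix protein pikachurin and lies 8.63 kb beyond Lifr, averaged 9.18 ± 0.951 FPKM in the alcohol-FMT group and 8.42 ± 0.825 FPKM in the control-FMT group, with an adjusted p of 0.852. The difference between the log2 fold change of Lifr and those of these genes was not tested. Osmr lies 216 kb away on the same chromosome. GENCODE M21 lists 8 Lifr transcripts, 6 of them protein-coding. The table gives 1 value per gene, so membrane-bound and soluble forms of the receptor are summed.

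The cell types that could carry the receptor were read from marker lists. Among 8 Sertoli cell markers, Sox9, Wt1, Fshr and Dhh were lower in every alcohol-FMT mouse than in any control-FMT mouse, against 5.33% of all genes tested, and 0 of the 8 reached an unadjusted p of 0.05 in limma. Wt1, a transcription factor of Sertoli cells, averaged 6.03 ± 0.198 FPKM in the alcohol-FMT group and 6.72 ± 0.370 FPKM in the control-FMT group (SD, n = 3 each). Fshr, the receptor of follicle-stimulating hormone, averaged 0.823 ± 0.292 FPKM in the alcohol-FMT group and 1.23 ± 0.094 FPKM in the control-FMT group. It had 22 to 50 fragments per library and passed the filter only through the control-FMT group, which favors its place in this count. The other 4 Sertoli cell markers overlapped. Rhox5 had the opposite sign, at 11.7 ± 3.99 FPKM in the alcohol-FMT group and 8.77 ± 0.797 FPKM in the control-FMT group, while the log2 fold changes of Clu, Cldn11 and Aard were −0.07, −0.02 and −0.02. The summed level of the 8 markers, most of it Clu, was 394 to 457 FPKM in the alcohol-FMT mice and 402 to 453 FPKM in the control-FMT mice. Of the 45 markers of the other cell types that passed the filter, 0 were lower without overlap. Among the 15 markers below the filter, Cd163 of macrophages (0.541 FPKM in the alcohol-FMT group and 0.708 FPKM in the control-FMT group) and Flt1 of endothelial cells (0.461 FPKM in the alcohol-FMT group and 0.568 FPKM in the control-FMT group) were lower without overlap. The share of all genes below the filter with this pattern was not computed. The summed levels of Leydig cell, macrophage and interstitial stromal cell markers overlapped between the groups. They were 318 to 444, 28.4 to 37.8 and 8.22 to 11.3 FPKM in the alcohol-FMT mice, against 393 to 507, 35.0 to 40.3 and 9.95 to 12.5 FPKM in the control-FMT mice. The part of these cell types in the level of Lifr was not tested.

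The 47 further pathway genes held no call. Of them, 23 passed the filter, 0 passed an adjusted p of 0.05 in limma (0% of all genes), 1 was higher and 0 were lower at an unadjusted p of up to 0.05, against 4.93% and 2.34% of all genes. Their median log2 fold change was 0.014, with 14 above and 9 below 0, beside a median of 0.008 over all genes tested. The higher gene was Nfil3, a STAT3 target and basic leucine zipper transcription factor, at 3.31, 2.86 and 2.31 FPKM in the alcohol-FMT mice, against 2.15, 2.31 and 1.98 FPKM in the control-FMT mice. Its log2 fold change was 0.27 (SE 0.115), with an unadjusted p of 0.0477 and an adjusted p of 0.687 (limma), and alcohol-FMT mouse 31 did not clear the highest control-FMT mouse. Over the alternatives its unadjusted p ranged over 0.0104 to 0.134.

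Among the receptors of the list, Il11ra1 was the 1 gene tested, at an adjusted p of 0.943, and it shares its locus with 6 other genes including Galt. Il11ra2 has 3 near-identical rows whose reads cannot be placed with certainty. Gab1 and Grb2, adaptors that link these receptors to other pathways, had log2 fold changes of −0.07 and −0.02. Pias1, an inhibitor of STAT proteins, averaged 34.6 ± 1.90 FPKM in the alcohol-FMT group and 37.4 ± 2.73 FPKM in the control-FMT group (SD, n = 3 each). Ptpn2, a phosphatase that acts on JAK and STAT proteins, had a log2 fold change of −0.06. The adjusted p was 0.809 for Pias1 and 0.904 for Ptpn2 (limma).

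**Figure D3:**
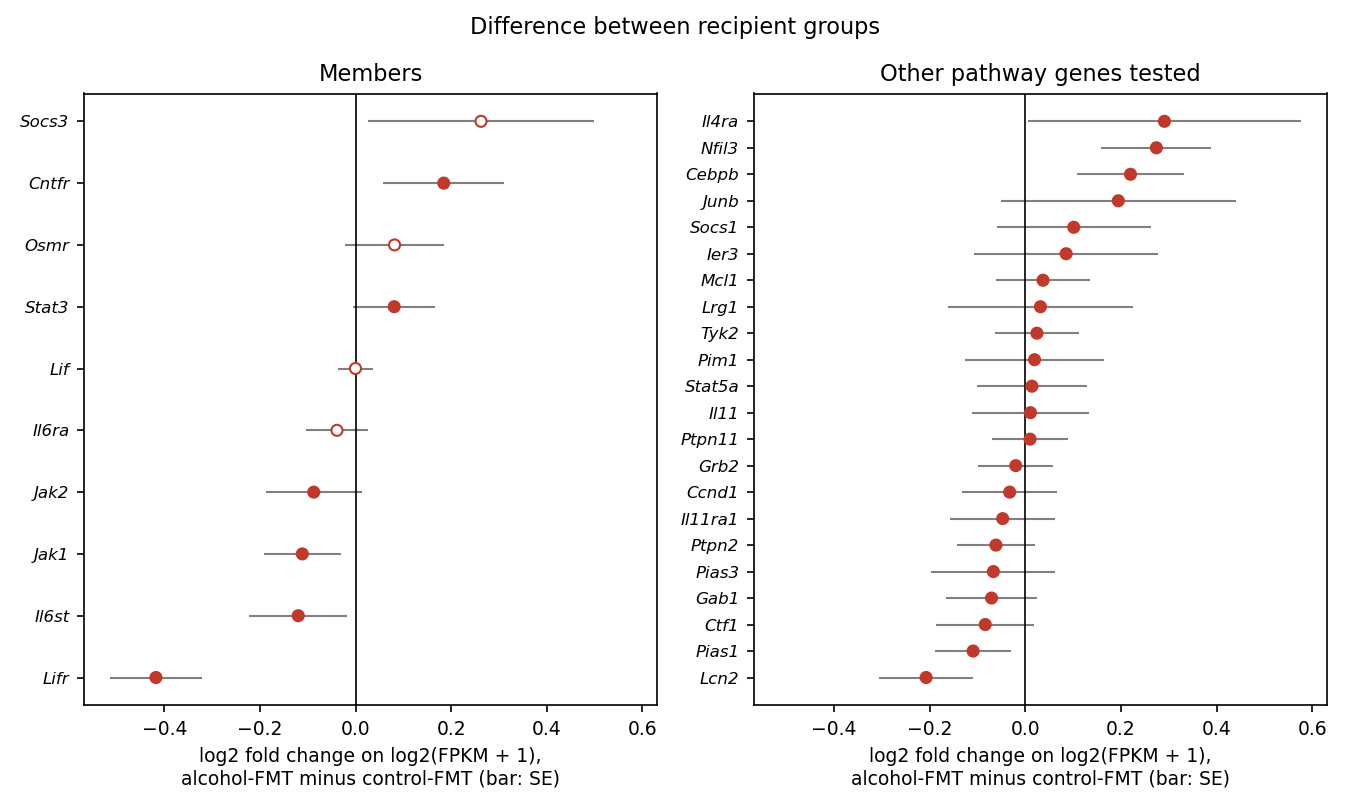
Log2 fold changes on the log2(FPKM + 1) scale, alcohol-FMT minus control-FMT, for the 10 genes (left) and for the other pathway genes that passed the filter and are reported here (right), with bars for the SE and open circles for genes under a mean of 1 FPKM. Lifr lies lowest at −0.42, and the other pathway genes shown range over −0.21 (Lcn2) to 0.29 (Il4ra).

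Socs3, the feedback inhibitor gene at chr11:117966079-117970047 on the minus strand, was high in a single mouse. It was at 0.431, 0.390 and 1.47 FPKM in alcohol-FMT mice 18, 24 and 31, against 0.478, 0.521 and 0.265 FPKM in control-FMT mice 16, 19 and 21. The fragments behind these values were 21, 21 and 78 in the alcohol-FMT libraries and 25, 27 and 13 in the control-FMT libraries. Mouse 31 was at 3.52 times the mean of the other 5 mice, and alcohol-FMT mice 18 and 24 lay inside the control-FMT range. The group log2 fold change of 0.26 (SE 0.236) therefore rests on mouse 31, without which it was −0.01.

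Several listed target genes of STAT3 had the same high mouse, a pattern noticed after their values were seen. Of the 19 targets, 11 were highest in alcohol-FMT mouse 31, or 57.9%, and of the 10 that passed the filter 6 were, against 19.9% of all genes tested. Il4ra and Ier3, which are among those 6, passed the filter only through their level in mouse 31, which favors this count. The matching share over all genes was not computed for targets below the filter. The median target lay 0.18 above its own mean over the libraries in mouse 31 on the log2 scale, and −0.14 and −0.06 from it in alcohol-FMT mice 18 and 24. Il4ra, a chain of the interleukin 4 receptor, was at 0.711, 0.716 and 2.59 FPKM in the alcohol-FMT mice, against 0.773, 0.995 and 0.629 FPKM in the control-FMT mice. Mouse 31 was thus at 3.39 times the mean of the others. Junb, an immediate early transcription factor gene, was at 1.19, 2.89 and 3.34 FPKM in the alcohol-FMT mice, against 1.97, 2.11 and 1.67 FPKM in the control-FMT mice. Mouse 18 of the alcohol-FMT group was lowest of the 6 for Junb. Lcn2, the secreted iron-siderophore carrier, ran the other way, at 66.0, 60.1 and 51.3 FPKM in the alcohol-FMT mice, against 70.8, 67.3 and 66.2 FPKM in the control-FMT mice. It was lower without overlap, a pattern found in this direction in 5.33% of all genes tested. Mouse 31 was lowest for Lcn2, and its adjusted p was 0.702 (limma). Pim1, a serine/threonine kinase gene, had a log2 fold change of 0.02.

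**Figure D4:**
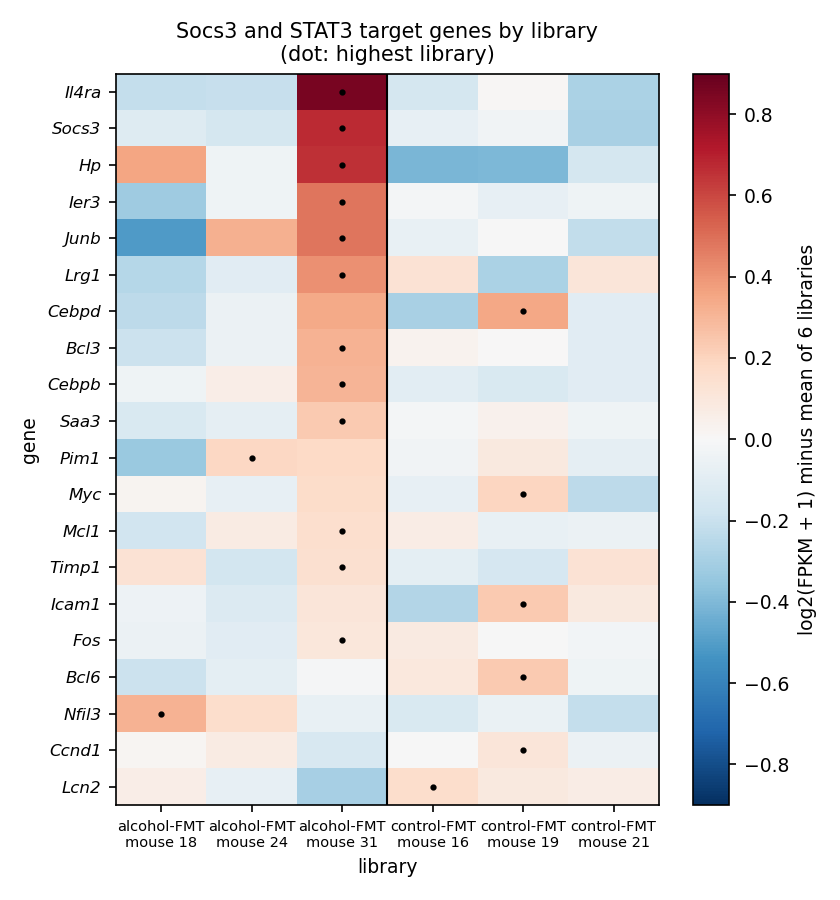
Socs3 and the 19 listed STAT3 target genes by library, each cell the log2(FPKM + 1) of a gene minus its mean over the 6 libraries, with a dot in the highest library, genes ordered by their value in alcohol-FMT mouse 31 and alcohol-FMT mice left of the line. Mouse 31 was highest for 11 of the 19 targets, while Lcn2 was lowest there.

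Marker lists also had extreme values in mouse 31. The summed level of 5 epididymis markers was 1.39, 0.820 and 4.76 FPKM in the alcohol-FMT mice, against 1.40, 1.33 and 1.94 FPKM in the control-FMT mice, and nearly all of it was Cuzd1, while of the other markers Lcn5, Lcn8 and Gpx5 were at 0 and Rnase9 at 0.320 FPKM in mouse 31. The summed spermatid markers, nearly all of it Tnp1, Tnp2, Prm1 and Prm2, were highest in mouse 31, at 21733 FPKM. Those 4 genes were each highest there, while the spermatid markers Acrv1 (57.9 FPKM) and Spaca1 (102 FPKM) were each lowest of the 6 libraries there. The summed markers of Sertoli cells (394 FPKM), endothelial cells (6.34), macrophages (28.4), interstitial stromal cells (8.22), spermatogonia (54.0) and spermatocytes (252) were each lowest of the 6 libraries there. Control-FMT mouse 19 was close for spermatogonia (54.2 FPKM), and control-FMT mouse 21 for endothelial cells (6.38 FPKM). Each sum is weighted to its most abundant markers, and not every marker was lowest in mouse 31. Adgre1 of macrophages (1.26 FPKM) was second highest there. Pecam1 of endothelial cells (0.699 FPKM) was highest there, the 1 marker of these lists that was. The Leydig cell sum was lowest in alcohol-FMT mouse 18 (318 FPKM, against 337 in mouse 31). The peritubular myoid cell sum was lowest in alcohol-FMT mouse 24 (26.7 FPKM, against 27.4 in mouse 31). The part of these cell types in the levels of Socs3 and Il4ra was not tested. Cebpb, a transcription factor gene of the acute-phase response, was the 1 target of the 10 that passed the filter to be higher without overlap, beside 7.76% of all genes tested, at 1.30 ± 0.292 FPKM in the alcohol-FMT group and 0.967 ± 0.034 FPKM in the control-FMT group (SD, n = 3 each), with an adjusted p of 0.724 (limma). It passed the filter only through the alcohol-FMT group, so its place among the 10 depends on the difference given. Hp, the gene of the acute-phase protein haptoglobin, lay below the filter and is named because of its values. It was at 1.11, 0.602 and 1.59 FPKM in the alcohol-FMT mice, against 0.241, 0.243 and 0.478 FPKM in the control-FMT mice. In the fit with no filter its log2 fold change was 0.65 (SE 0.189), with an unadjusted p of 0.0136 and an adjusted p of 0.799.

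The genes whose levels ran most like that of Lifr were listed by Pearson's r over the 6 libraries on the log2(FPKM + 1) scale, among 11643 protein-coding genes. The highest were Zfp281 (0.987), Aga (0.986), Sobp (0.983), Stx2 (0.979) and Ripor1 (0.976), and 100 genes (0.859%) had an r above 0.9. Zfp281, a zinc finger transcription factor gene, was at 5.05, 4.84 and 5.33 FPKM in the alcohol-FMT mice, against 5.91, 6.03 and 5.57 FPKM in the control-FMT mice. Stx2, a membrane fusion gene needed for spermatogenesis in mice, was at 11.3, 11.1 and 11.4 FPKM in the alcohol-FMT mice, against 12.3, 13.1 and 12.3 FPKM in the control-FMT mice. Since Lifr differed between the groups, this measure favors genes that differ between them in the same direction. With the group means removed, the highest were Gapdhs (0.999), the glycolytic enzyme gene of sperm, 1700003E16Rik (0.996), Iqsec1 (0.995), Recql (0.993) and Dlec1 (0.993). These were picked as the highest of 11643 genes over only 6 libraries, and r was not tested. Without removal of the group means, their r was −0.18, −0.23, 0.61, 0.34 and 0.55 in the same order. No gene was among the 5 highest by both measures. The 5 highest over the 6 libraries were picked by so high an r that a high r with the group means removed is favored too. With the group means removed, r was 0.948 for Zfp281, 0.929 for Sobp, 0.917 for Ripor1, 0.906 for Aga and 0.851 for Stx2. Of the pathway's own genes, r with Lifr over the 6 libraries was 0.60 for Il6st, 0.55 for Jak1, 0.50 for Jak2, −0.30 for Stat3 and −0.68 for Cntfr. After removal of the group means, r was 0.37 for Il6st, −0.18 for Jak1, 0.25 for Jak2, 0.53 for Stat3 and −0.47 for Cntfr. The sign thus changed for Jak1 and Stat3.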

How the data were processed

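The authors prepared testis RNA libraries with an Illumina TruSeq kit, 1 library per mouse. Strand is not stated in the sources used here. The study's methods name TopHat2, while HISAT2 2.0.5 stands in the submitters' processing notes, with mm10 and mm8 as builds. Positions in the table are those of mm10. The deposited FPKM values were made by the authors from fragments per gene, and each value times gene length was a whole multiple of 1 step per library (100% of values within 0.01), from which fragments were read back. The deposited scaling equaled median-of-ratios factors computed from them.

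The test used limma 3.58.1 (trend, R 4.3.3) on log2(FPKM + 1) of genes averaging 1 FPKM or more (15206 of 35799 with any value), 3 alcohol-FMT against 3 control-FMT libraries, no covariate, Benjamini-Hochberg adjustment. Values of members below the filter came from the fit without it. The fit was tested on simulated data with a set spread between libraries and with fold changes larger than that of Lifr. Its power for the present data was not measured. A test of counts had been foreseen only for a table of counts. Alternatives were another pseudocount (0.1), no filter, library totals, removal of the length trend, limma-voom on fragments and leaving out each library.

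The members and lists were chosen with earlier results of these data known. Named genes were the members, other pathway genes at an unadjusted p of up to 0.05, the 2 most abundant of each role, and the 5 most like Lifr by each measure; the values of 1 gene under this rule are not reported here. Il6, Il4ra, Junb, Cebpb, Socs1, Hp, Cuzd1, Cd163, Flt1, Rictor, Egflam and the 2 genes called without mouse 31 were named after their values were seen. So were Ier3 and the spermatid, endothelial and macrophage markers given for mouse 31. Promoter sequences are from RefSeq on GRCm38.p6.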

Additional observations from a re-analysis of the deposited data

How the results depend on the processing

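Over 11 alternatives, 8 of the 10 members kept the sign of their log2 fold change, the exceptions being Lif and Socs3. With the pseudocount 0.1, the log2 fold change was −0.55 for Lifr, −0.13 for Il6ra and 0.24 for Osmr. With limma-voom it was −0.57 for Lifr, −0.16 for Il6ra, 0.30 for Osmr, 0.37 for Cntfr, −0.054 for Lif (SE 0.76) and 0.62 for Socs3. Both fits add less to the level of a gene before the log is taken, which by construction moves fold changes of low genes away from 0. Leaving out 1 library gave −0.01 to 0.41 for Socs3.

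The count of 1 other pathway gene at an unadjusted p of up to 0.05 was 0 with library totals and 0 with the length trend removed, and the cause was not tested. Limma-voom also gave 1, but it was Lcn2, lower, and the fit with no filter gave Hp in place of Nfil3. Leaving out 1 library gave 0 to 6 (6 without alcohol-FMT mouse 18, of which 5 were higher, among them Junb, Pim1, Cebpb and Socs1, and Lcn2 was lower, and 0 without alcohol-FMT mouse 24 or any 1 control-FMT mouse). Without mouse 31 it was Nfil3 alone. Genes called at an adjusted p of 0.05 numbered 0 under all alternatives except without alcohol-FMT mouse 31, where Slc41a3 and Gm25144 made 2, so leaving out 1 library gave 0 to 2.

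Over all genes, 1106 reached an unadjusted p of 0.05, against 2697 when alcohol-FMT mouse 18 was left out, 664 and 678 when control-FMT mouse 19 or 21 was, and 2016 with no filter. The share of these that was higher in the alcohol-FMT group was 67.8%, and 46.6% with library totals, 50.6% with the length trend removed, 59.4% with limma-voom and 54.9% with no filter. Library totals moved the median of all genes by −0.0254 on the log2 scale. No paired analysis was possible because the groups share no replicate number. Depth limits Lif, with 1 to 6 fragments per library.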
